A study of Mus musculus with 2 samples.

Results

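The genes described here encode the subunits of the proteasome and the factors that assemble it, taken from the table of all genes by their names: every Psma, Psmb, Psmc, Psmd, Psme, Psmf and Psmg gene with a number, and Pomp. The 3 catalytic subunits of the immunoproteasome (Psmb8, Psmb9 and Psmb10) were left out of the set and are used only for comparison. The rule found 45 of the 23609 genes listed, and all 45 passed the filter of a read count scaled to library size (CPM) of more than 0.5 in P2Y4 KO or WT PAT. They were measured by RNA-seq in pericardial adipose tissue (PAT), fat that lies on the outside of the heart, of C57BL/6J mice 24 h after ligation of the left anterior descending artery (LAD), which cuts off the blood supply of part of the left ventricle. One library was made from the combined PAT RNA of 3 P2Y4 KO mice, which lack the nucleotide receptor P2Y4, and the other from that of 3 WT mice. The P2Y4 KO mice are not labelled with a cell type in which the receptor was deleted. Both groups had the LAD ligation, and by the study's methods the mice were males and females aged 11 to 13 weeks. The deleted gene, P2ry4, has no entry in the table, so the genotype labels were not checked against it. Each genotype is thus 1 library, and the differences have no replicate check.

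The proteasome degrades proteins that carry a ubiquitin chain. Its 20S core is a barrel of outer alpha rings and inner beta rings, and the beta subunits Psmb5, Psmb6 and Psmb7 carry the chymotrypsin-like, caspase-like and trypsin-like active sites inside it. The 19S regulatory particle caps the barrel, with a base of ATPases that unfold the substrate and a lid that removes the ubiquitin. Under interferon, cells replace the active-site subunits by Psmb8, Psmb9 and Psmb10 and make more of the PA28 activator encoded by Psme1 and Psme2. The transcription factor Nfe2l1 raises many proteasome genes together when proteasome activity is limiting, and in brown fat it is known for keeping the proteasome at the level that heat production demands.

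The reads counted in genes were estimated from the steps between the deposited values, at 14885824 in the P2Y4 KO library and 15508820 in the WT library. This is not the number of reads sequenced. The P2Y4 KO/WT ratio of a gene is given with its exact 95% counting interval (Clopper-Pearson), which allows for the counting of reads but not for differences between mice, so that it speaks of the 2 libraries. Members other than Psma8 had between 336 and 6017 reads in a library. In bulk tissue, fewer cells of a type and less RNA per cell cannot be told apart. The libraries differed in cell type markers. The summed level of the 6 adipocyte markers was 3279 CPM in P2Y4 KO PAT and 1751 CPM in WT PAT, with 5 of 6 at least 2-fold higher. That of the 6 thermogenic adipocyte markers, all 6 at least 2-fold higher, was 408 CPM in P2Y4 KO PAT and 13.6 CPM in WT PAT. Cardiomyocyte markers, 9 of 10 listed and all 9 at least 2-fold higher, summed to 497 CPM in P2Y4 KO PAT and 8.90 CPM in WT PAT. Mesothelial markers summed to 501 CPM in P2Y4 KO PAT and 1622 CPM in WT PAT, with 4 of 5 at least 2-fold lower. The fat and heart muscle markers were thus higher and the mesothelial markers lower in P2Y4 KO PAT. Among immune cells, macrophage markers summed to 1639 CPM in P2Y4 KO PAT and 1368 CPM in WT PAT, with 0 of 4 past 2-fold. Neutrophil markers summed to 923 CPM in P2Y4 KO PAT and 1156 CPM in WT PAT, with 2 of 4 at least 2-fold lower, and T cell markers to 15.9 CPM in P2Y4 KO PAT and 7.60 CPM in WT PAT, with 2 of 4 at least 2-fold higher. B cell markers summed to 161 CPM in P2Y4 KO PAT and 144 CPM in WT PAT, with 0 of 3 past 2-fold. Other lists also differed. Endothelial markers summed to 115 CPM in P2Y4 KO PAT and 52.3 CPM in WT PAT (3 of 4 at least 2-fold higher), markers of dividing cells to 96.5 CPM in P2Y4 KO PAT and 45.0 CPM in WT PAT (2 of 4), and skeletal muscle markers to 13.4 CPM in P2Y4 KO PAT and 4.60 CPM in WT PAT (6 of 7). The part of this tissue makeup in the ratios below was not tested.

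No proteasome gene reached a 2-fold difference between the genotypes. Of the 45 genes, 0 had a ratio of at least 2 and 0 a ratio of at most 0.5, where 8.75% of the 18474 genes past the filter were at least 2-fold higher and 4.4% at least 2-fold lower in P2Y4 KO PAT. Of these 1617 and 812 genes, 249 and 152 had more than 10 CPM in both libraries. Among the 10537 genes with more than 10 CPM in both libraries, which hold every proteasome gene but Psma8, the shares were 2.36% higher and 1.44% lower. With shares this low, the count of 0 says little of a set of 44 genes. A ratio within 1.25-fold of equality was found for 42 of these 44 proteasome genes (95.5%), against 71.0% of the 10537 genes. The exceptions were Psme2, higher in P2Y4 KO PAT, and the assembly chaperone Psmg2, lower. The interquartile range of the log2 ratio was 0.16 over the 44 proteasome genes and 0.38 over the 10537 genes. Neither comparison was matched for read depth. The 10537 genes reach down to 10 CPM, most of the 44 genes stood far above that, and a ratio from fewer reads varies more by counting alone. A narrower spread than that of equally read genes is therefore not shown.

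The median ratio of the 45 genes was 0.943 (median log2 ratio -0.09, against 0.00 over all genes past the filter), 12 genes lying above 1 and 33 below it. Among genes with more than 10 CPM in both libraries, the median log2 ratio was -0.08 over the 44 proteasome genes and -0.03 over all 10537, and 32 of the 44 (72.7%) had a ratio below 1, against 54.9% of the 10537. The sign of this small shift depends on the scaling: with the median of the ribosomal protein genes set to equality, which moves every log2 ratio by 0.19, the median was 0.11 and 37 genes lay above 1. The counting interval lay above 1 in 6 of the 44 genes with more than 10 CPM and below 1 in 21, where 26.9% and 32.8% of the 10537 genes did. An interval leaves out 1 more readily where more reads were counted, and these shares were not matched for read depth. Set against the members' own median, which does not depend on the scaling, the interval lay above it in 12 genes, below it in 9, and held it in 24. Summed over the set, the genes took 6805 CPM in P2Y4 KO PAT and 7047 CPM in WT PAT, a ratio of the sums of 0.966.

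**Figure D1:**
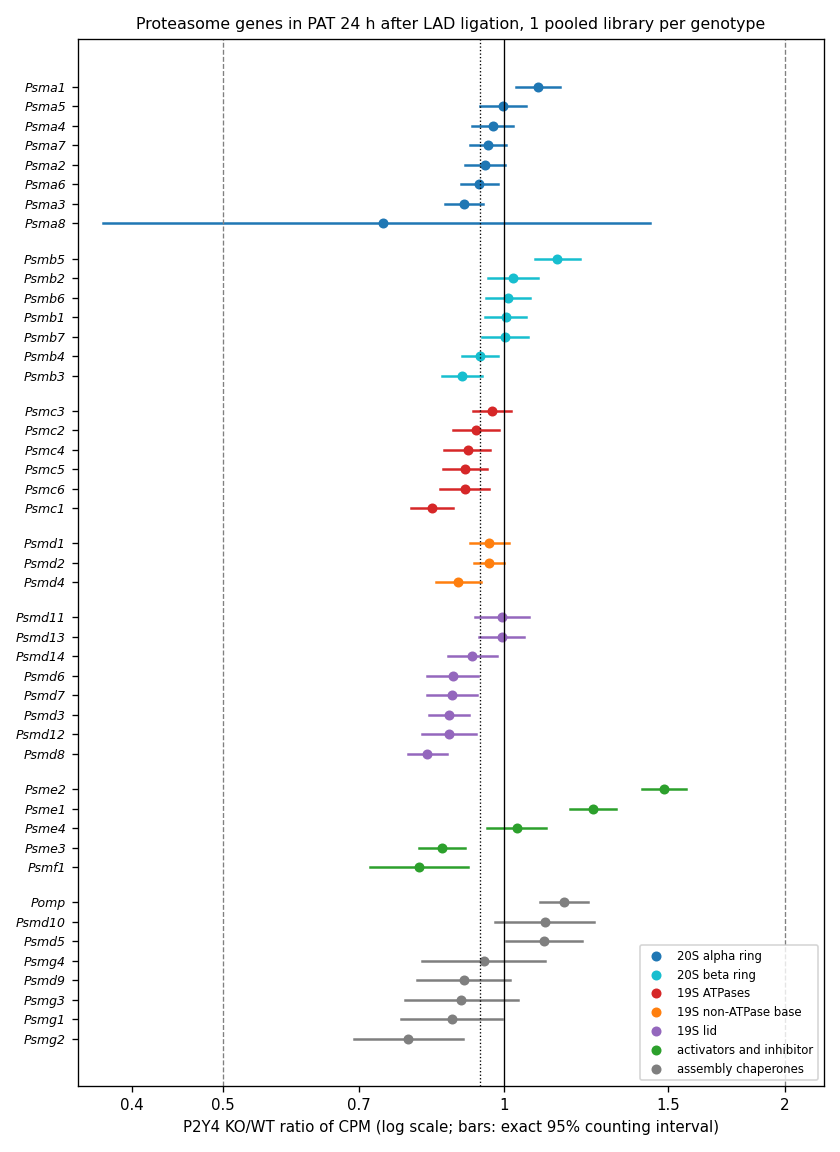
P2Y4 KO/WT ratio of CPM (log scale) for each of the 45 proteasome genes, grouped by role and sorted within a role, with the exact 95% counting interval as a bar. The solid line marks equality, the dotted line the median ratio of the set (0.943) and the dashed lines the 2-fold thresholds. Psme2 (1.48) and Psme1 (1.24) stand at the right. All 17 subunits of the 19S particle in the set lie left of equality (4 of 17 with the ribosomal protein genes set to equality). The wide bar is Psma8, with 17 reads in P2Y4 KO PAT and 24 in WT PAT.

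The PA28 activator subunits were the members with the highest ratios. PA28 binds the ends of the 20S core in place of the 19S particle and opens it without a need for ubiquitin or ATP, and its alpha and beta subunits form 1 ring. Psme2, PA28 beta, had 220 CPM in P2Y4 KO PAT (3275 reads) and 148 CPM in WT PAT (2301 reads), a ratio of 1.48 (1.41 to 1.56). Psme1, PA28 alpha, had 177 CPM in P2Y4 KO PAT and 142 CPM in WT PAT, a ratio of 1.24 (1.18 to 1.32). The intervals of the 2 partners do not overlap, so that the beta subunit differed more between the libraries than the alpha subunit. Per kb of transcript, Psme2 stood at 229 CPM in P2Y4 KO PAT and 154 CPM in WT PAT, and Psme1 at 159 CPM in P2Y4 KO PAT and 128 CPM in WT PAT. Without both genes the other 43 had a median ratio of 0.942 and a highest ratio of 1.16.

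Psme1 and Psme2 lie close together on chromosome 14 (GRCm38, GENCODE M21), Psme1 at 55578123 to 55581529 on the plus strand and Psme2 at 55587441 to 55591113 on the minus strand. Of the 50-base windows of the principal Psme2 transcript, 59.3% also occur in another gene, chiefly its near-identical copy Psme2b, so reads of this gene are less certain. Psme2b was itself listed at 22.2 CPM in P2Y4 KO PAT and 15.5 CPM in WT PAT (ratio 1.43, 1.21 to 1.70), and the reads of both entries together gave 1.48 (1.40 to 1.56). For Psme1, 14.1% of the windows are shared, and its exons overlap those of Emc9 on the other strand. How the counting treated strand is not given in the sources used here, so reads of such an overlap cannot be assigned with certainty. The promoter windows of these 2 genes, the members that differed most upward, and of Psmb5, the constitutive active-site subunit with the highest ratio, are shown for reference (RefSeq, GRCm38.p6, 250 bases before to 50 after the annotated start, written 5′ to 3′ on the strand of the gene). They were searched on both strands for TGACNNNGC, the core of the antioxidant response element that Nfe2l1 recognises, for GAAA, any 2 bases and GAAA, the core of the interferon-stimulated response element, and for the CCAAT box. Capitals mark the matches, which are TTTCGCTTTC (the interferon-stimulated core read from the other strand) beginning 10 bases after the start of Psme1, and TGACGTCGC beginning 47 bases before the start of Psmb5. The Psme2 window shown, for the first of 2 annotated starts, holds none of the 3 motifs. The windows are chr14:55578244-55578543 (plus strand) for Psme1, chr14:55591052-55591351 (minus strand) for Psme2 and chr14:54617946-54618245 (minus strand) for Psmb5.
Psme1: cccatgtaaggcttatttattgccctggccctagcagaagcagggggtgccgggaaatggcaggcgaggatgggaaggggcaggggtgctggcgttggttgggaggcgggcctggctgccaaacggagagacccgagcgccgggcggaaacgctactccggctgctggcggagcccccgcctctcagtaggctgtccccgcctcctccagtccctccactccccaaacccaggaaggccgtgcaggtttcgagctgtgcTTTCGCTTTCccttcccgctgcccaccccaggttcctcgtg
Psme2: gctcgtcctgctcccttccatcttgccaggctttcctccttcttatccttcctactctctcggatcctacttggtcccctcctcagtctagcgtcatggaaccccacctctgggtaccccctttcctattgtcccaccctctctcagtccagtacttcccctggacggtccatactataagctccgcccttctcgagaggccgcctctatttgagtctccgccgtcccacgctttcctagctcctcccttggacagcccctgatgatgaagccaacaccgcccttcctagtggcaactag
Psmb5: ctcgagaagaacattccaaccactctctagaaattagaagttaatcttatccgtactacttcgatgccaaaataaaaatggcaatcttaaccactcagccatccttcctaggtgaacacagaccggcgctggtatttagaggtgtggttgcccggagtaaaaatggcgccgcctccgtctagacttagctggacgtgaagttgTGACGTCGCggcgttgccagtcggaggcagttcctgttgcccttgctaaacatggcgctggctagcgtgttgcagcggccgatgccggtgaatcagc

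The other regulators of the core did not follow PA28 alpha and beta. Psme3 encodes PA28 gamma, the nuclear member of the family, and had 150 CPM in P2Y4 KO PAT and 175 CPM in WT PAT, a ratio of 0.859 (0.812 to 0.909). Psme4, the large activator PA200, had 99.8 CPM in P2Y4 KO PAT and 96.8 CPM in WT PAT, a ratio of 1.03 (0.960 to 1.11) whose interval holds equality. Psmf1 encodes PI31, first described as an inhibitor of the 20S core, and had 32.2 CPM in P2Y4 KO PAT and 39.8 CPM in WT PAT, a ratio of 0.811 (0.719 to 0.916). With the ribosomal protein genes set to equality, the interval of Psme3 (0.926 to 1.04) and that of Psmf1 (0.820 to 1.05) hold 1, and that of Psme4 (1.10 to 1.27) lies above it. With ratios from 0.811 to 1.48, these 5 genes spanned the widest range of the 7 role groups.

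In the 20S core, the ratios lay close to equality. The alpha ring, the gate of the barrel, had a median ratio of 0.959 over 8 genes, and the beta ring, which carries the active sites, 1.004 over 7 genes. With the ribosomal protein genes set to equality, all 14 core genes other than Psma8 lay above 1, so that the directions that follow hold at the scaling to the library total. In the alpha ring, Psma1 was the only gene above 1, with 179 CPM in P2Y4 KO PAT and 164 CPM in WT PAT (ratio 1.09, 1.03 to 1.15). Psma2 to Psma7 lay between 0.907 (Psma3, 0.866 to 0.951) and 0.997 (Psma5, 0.942 to 1.06). Psma8, the alpha subunit of spermatogenic cells, had the lowest ratio of the set, 0.742, but with 17 reads in P2Y4 KO PAT and 24 in WT PAT its interval ran from 0.372 to 1.43. Per kb it stood at 0.680 CPM in P2Y4 KO PAT and 0.916 CPM in WT PAT, where its ubiquitous counterpart Psma7 had 290 CPM per kb in P2Y4 KO PAT and 302 CPM per kb in WT PAT.

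Of the constitutive active-site subunits, only Psmb5 had an interval that leaves out equality at the scaling to the library total, whereas with the ribosomal protein genes set to equality the intervals of all 3 lay above 1. Psmb5 had 180 CPM in P2Y4 KO PAT and 158 CPM in WT PAT (2675 reads in P2Y4 KO and 2442 in WT PAT), a ratio of 1.14 (1.08 to 1.21). Psmb6 had 174 CPM in P2Y4 KO PAT and 173 CPM in WT PAT, a ratio of 1.01 (0.956 to 1.07). Psmb7 had 161 CPM in P2Y4 KO PAT and 160 CPM in WT PAT, a ratio of 1.003 (0.948 to 1.06). The interval of Psmb5 lies above those of both other active-site genes, although 57.1% of its 50-base windows also occur in other genes, mainly Gm3375, which itself had 12 reads in P2Y4 KO PAT and 13 in WT PAT. The non-catalytic beta subunits ranged between 0.901 for Psmb3 (198 CPM in P2Y4 KO PAT and 220 CPM in WT PAT, 0.858 to 0.947) and 1.02 for Psmb2 (0.962 to 1.09), with Psmb1 at 1.004 and Psmb4 at 0.943.

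The set was taken by gene name, so subunits of the 19S particle with other names are not among the 17 counted here. All 17 had a ratio below 1 at the scaling to the library total, 13 of them with the interval below 1. Among the 10537 genes with more than 10 CPM in both libraries, not matched for read depth, 54.9% had a ratio and 32.8% an interval below 1. Only 4 of 17 lay below 1 with the ribosomal protein genes set to equality, and 15 of 17 when the 100 most abundant genes were left out of the total. At the scaling to the library total, the median ratio of the 17 genes was 0.909 (range 0.828 to 0.996), against 0.985 (0.901 to 1.14) over the 14 core genes other than Psma8. The difference between the particles does not depend on the scaling: 12 of the 14 core genes had a ratio above the median of the 19S genes, and the ranges overlap. The median ratio of the 10537 genes, 0.976, also lay above the 19S median, so a place above it is not particular to the core genes. Among the 6 ATPases, which form the motor ring, the highest was Psmc3 with 232 CPM in P2Y4 KO PAT and 239 CPM in WT PAT (ratio 0.971, 0.927 to 1.02). The lowest ATPase was Psmc1 with 178 CPM in P2Y4 KO PAT and 212 CPM in WT PAT (ratio 0.837, 0.795 to 0.881). The other 4 ATPases lay between 0.908 and 0.933, and the intervals of Psmc1 and of Psmc2 and Psmc3 do not overlap.

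The 3 non-ATPase base genes in the set are the large scaffold subunits Psmd1 and Psmd2 and the ubiquitin receptor Psmd4. Psmd1 had 223 CPM in P2Y4 KO PAT and 231 CPM in WT PAT (ratio 0.965, 0.920 to 1.01), and Psmd2, the most read member, 374 CPM in P2Y4 KO PAT and 388 CPM in WT PAT (0.963, 0.929 to 0.999). Psmd4 had 156 CPM in P2Y4 KO PAT and 174 CPM in WT PAT (0.894, 0.845 to 0.945). The lid had the lowest median ratio of the 7 role groups, 0.881 over 8 genes. Within it, Psmd11 (117 CPM in P2Y4 KO PAT and 118 CPM in WT PAT, ratio 0.996, 0.932 to 1.06) and Psmd13 (0.994, 0.941 to 1.05) lay at equality. Psmd14, the deubiquitinase that cuts the chain off the substrate, had a ratio of 0.925 (0.871 to 0.982). The other 5 lid genes lay between 0.828 and 0.882, with Psmd8 lowest at 210 CPM in P2Y4 KO PAT and 253 CPM in WT PAT (0.828, 0.790 to 0.868).

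Levels per kb of principal transcript differed far more between subunits than between the libraries. The 14 core genes spanned 70.3 to 290 CPM per kb in P2Y4 KO PAT (median 165) and 73.6 to 302 in WT PAT (median 165), a span of 4.13-fold and 4.10-fold. The 17 genes of the 19S particle in the set spanned 41.2 to 142 CPM per kb in P2Y4 KO PAT (median 89.0) and 41.4 to 164 in WT PAT (median 101). Psma7 was the highest and Psma2 the lowest of the 14 core genes in both libraries. These levels rest on the length of 1 annotated transcript per gene, and which transcript was in use was not tested.

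**Figure D2:**
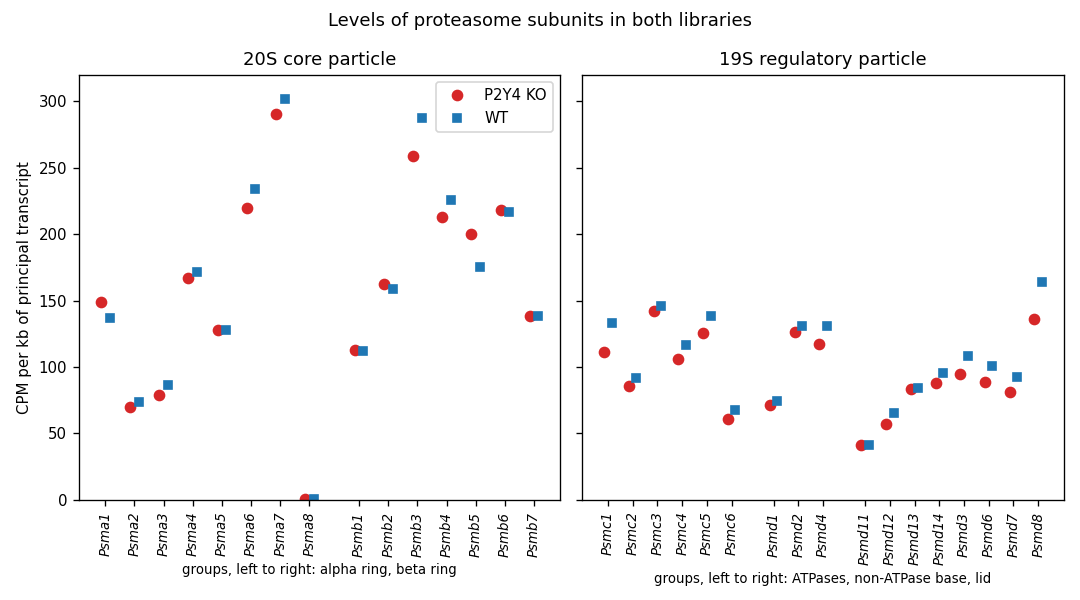
CPM per kb of principal transcript for the subunits of the 20S core (left panel) and the 19S particle (right panel), in the P2Y4 KO library (circles) and the WT library (squares). The 2 symbols of a gene lie close together compared with the distance between genes, with Psma7 highest at 290 in P2Y4 KO PAT and 302 in WT PAT, and Psma8 lowest at 0.680 in P2Y4 KO PAT and 0.916 in WT PAT.

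The assembly chaperones were read less than the subunits, at a median of 27.6 CPM per kb in P2Y4 KO PAT and 31.9 in WT PAT, and their ratios lay on both sides of equality. Pomp, which joins the core when the beta ring is laid on the alpha ring and is the first protein that the finished core degrades, was the most abundant of them, with 158 CPM in P2Y4 KO PAT and 136 CPM in WT PAT (ratio 1.16, 1.09 to 1.23). The chaperones that build the alpha ring work as pairs, Psmg1 with Psmg2 and Psmg3 with Psmg4. Psmg1 had 31.2 CPM in P2Y4 KO PAT and 35.6 CPM in WT PAT (0.879, 0.775 to 0.997), and its partner Psmg2 had 26.2 CPM in P2Y4 KO PAT and 33.2 CPM in WT PAT (0.790, 0.691 to 0.903). The intervals of both lie below 1 at the scaling to the library total and overlap each other, but with the ribosomal protein genes set to equality both hold 1 (Psmg1 0.885 to 1.14, Psmg2 0.789 to 1.03). For the second pair, Psmg3 had 25.8 CPM in P2Y4 KO PAT and 28.6 CPM in WT PAT (0.901, 0.784 to 1.03), and Psmg4 had 22.6 CPM in P2Y4 KO PAT and 23.8 CPM in WT PAT (0.952, 0.818 to 1.11). The intervals of this pair hold equality, as differences of this size were not detectable at 336 to 444 reads.

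Psmd5, Psmd9 and Psmd10 hold the ATPases while the base of the 19S particle is built and leave before it is finished. Psmd5 had 62.5 CPM in P2Y4 KO PAT and 56.6 CPM in WT PAT (1.11, 1.01 to 1.21). Psmd10, also known as gankyrin, had 37.2 CPM in P2Y4 KO PAT and 33.6 CPM in WT PAT (1.11, 0.979 to 1.25). Psmd9 had 38.4 CPM in P2Y4 KO PAT and 42.4 CPM in WT PAT (0.906, 0.808 to 1.01). The intervals of Psmd9 and Psmd10 both hold equality, and that of Psmd5 lies above it. With the ribosomal protein genes set to equality, that of Psmd10 lies above 1 as well (1.12 to 1.43). Over the 8 chaperones the median ratio was 0.929, with 3 genes above 1 and 5 below, against 7 above and 1 below with the ribosomal protein genes set to equality.

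The immunoproteasome subunits, left out of the set, had higher P2Y4 KO/WT ratios than the subunits they replace, while their levels per kb stayed below those of their counterparts in both libraries. Psmb8, whose exons overlap those of Gm20496 on the other strand, had 237 CPM in P2Y4 KO PAT and 110 CPM in WT PAT (ratio 2.15, 2.03 to 2.28). Psmb9, whose exons overlap those of Tap1 on the other strand, had 84.2 CPM in P2Y4 KO PAT and 26.9 CPM in WT PAT (3.13, 2.80 to 3.50). Psmb10 had 137 CPM in P2Y4 KO PAT and 91.2 CPM in WT PAT (1.497, 1.40 to 1.60). Set against its constitutive counterpart, which takes the scaling out, the change was 1.89-fold for Psmb8 to Psmb5 (1.74 to 2.05), 3.10-fold for Psmb9 to Psmb6 (2.74 to 3.51) and 1.49-fold for Psmb10 to Psmb7 (1.37 to 1.63), with exact conditional 95% intervals for counting error. Per kb, the immuno subunit made up 42.1% of the pair at the chymotrypsin-like site in P2Y4 KO PAT and 27.8% in WT PAT. At the caspase-like site it made up 22.2% in P2Y4 KO PAT and 8.42% in WT PAT, and at the trypsin-like site 42.9% in P2Y4 KO PAT and 33.5% in WT PAT. The levels per kb and these shares rest on the length of 1 annotated transcript per gene. In CPM without the length, Psmb8 (237) stood above Psmb5 (180) in P2Y4 KO PAT, and the other comparisons kept their order. Shared 50-base windows were not counted for Psmb8, Psmb9 and Psmb10, and those of Psmb5 may lower its reads. All 3 constitutive genes lay within 1.25-fold of equality, and none of the 3 interferon-inducible alternatives did. These pairs were looked at with earlier results of these data known, and the part of the immune cells, whose summed markers are given above and which carry much of the immunoproteasome, was not tested.

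**Figure D3:**
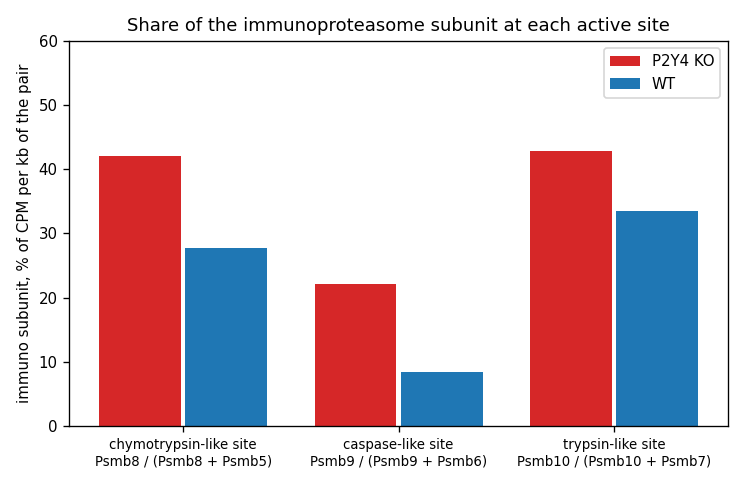
Share of the immunoproteasome subunit in the summed CPM per kb of each pair of interchangeable active-site subunits, in the P2Y4 KO library (left bar of each pair) and the WT library (right bar), 1 library each and no error bar. The share is higher in P2Y4 KO PAT at all 3 sites, at 42.1% against 27.8% in WT PAT for Psmb8, 22.2% against 8.42% in WT PAT for Psmb9 and 42.9% against 33.5% in WT PAT for Psmb10. The shares rest on the length of 1 annotated transcript per gene.

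Factors that act with the proteasome gave ratios on both sides of equality. The related lists hold 41 genes, among them the 8 of the CCT chaperonin taken up below, which is a separate complex. Of these 41, 2 were at least 2-fold higher, Psmb8 and Psmb9, and 0 at least 2-fold lower. Among the 10537 genes with more than 10 CPM in both libraries, the shares were 2.36% higher and 1.44% lower. Nfe2l1 had 270 CPM in P2Y4 KO PAT and 253 CPM in WT PAT, a ratio of 1.07 (1.02 to 1.12). The 6 genes of its list had a median log2 ratio of -0.12, with 1 above 1 and 5 below. With the ribosomal protein genes set to equality, 4 lay above 1 and 2 below. Mafk had the lowest ratio of the 41 genes, 0.593 (0.536 to 0.657), with 40.2 CPM in P2Y4 KO PAT and 67.8 CPM in WT PAT. Of the proteasome-bound factors, which include the ubiquitin receptor Adrm1 and the deubiquitinases Usp14 and Uchl5, all 9 lay below 1 with a median log2 ratio of -0.26, and 6 of 9 still did with the ribosomal protein genes set to equality. The 6 ubiquitin and E1 genes had a median of 0.00 and the 9 shuttle factors, which carry substrates to the proteasome, a median of -0.03.

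Other large complexes show how far a set of subunits could move between these libraries. The 8 genes of the CCT chaperonin, which folds actin and tubulin, had ratios between 0.773 and 0.862 and a median log2 ratio of -0.28, and all 8 lay below 1 under every scaling tried. The 76 cytosolic ribosomal protein genes had a median of -0.19. For NADH dehydrogenase, the first complex of the respiratory chain, 36 genes were taken by their names (Ndufa, Ndufb, Ndufc, Ndufs or Ndufv with a number). Not every gene so named, such as Ndufa4, need be a subunit of that complex. They had a median of 0.38 with all 36 above 1 under every scaling tried. The median of the proteasome genes (-0.09) lay 0.20 above that of the chaperonin, 0.11 above that of the ribosomal proteins and 0.46 below that of NADH dehydrogenase, and these distances do not depend on the scaling. No test of the distances is given, since each genotype is 1 library.

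**Figure D4:**
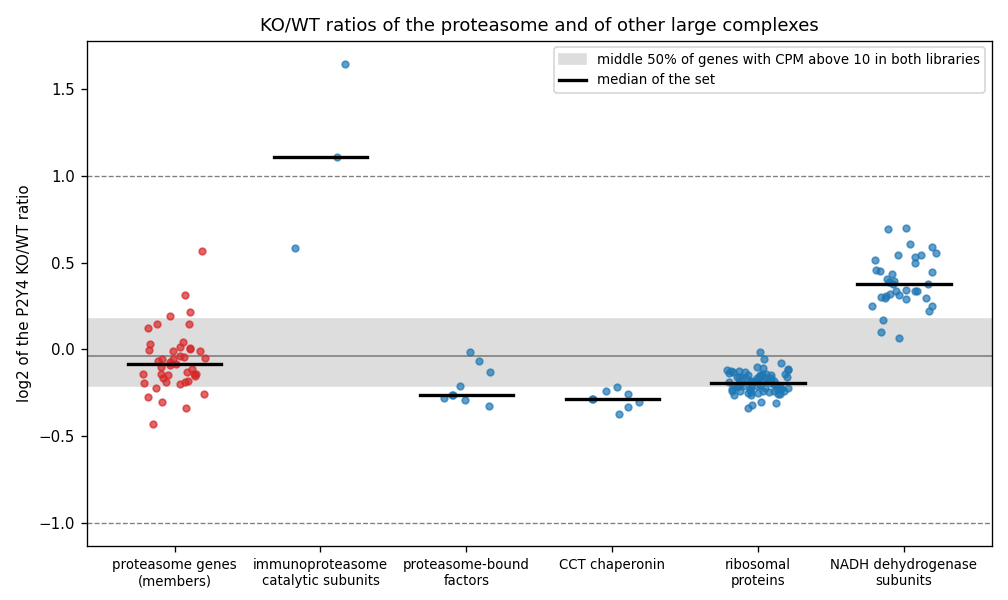
Log2 of the P2Y4 KO/WT ratio for each gene of 6 sets (points, spread sideways for legibility) with the median of the set (bar), over the middle 50% of the 10537 genes with more than 10 CPM in both libraries (grey band) and the 2-fold thresholds (dashed). The proteasome genes centre at -0.09 within the band, the CCT chaperonin at -0.28 lies under it and NADH dehydrogenase at 0.38 above it.

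The promoter windows of the proteasome genes were compared with those of all genes in the same RefSeq table outside chromosome 18. Windows on that chromosome, where Psma8 and Psmg2 lie, were left out of every count below. A window was used for 37 of the 45 genes. The antioxidant response element core TGACNNNGC was found in 6 of 37 (16.2%), against 14.0% of 27025 genes, and the 6 were Psmb5, Psmb6, Psmc6, Psmd12, Psmd9 and Psme4. The CCAAT box was found in 12 of 37 (32.4%), against 41.1% of all genes. The interferon-stimulated response element core was found in 5 of 37 (13.5%), in Psmb3, Psmd4, Psmd9, Psme1 and Psmg4, against 3.99% of all genes. Of these 5 genes, Psme1 had an interval above 1 and the other 4 did not. The windows of Psmb8, Psmb9 and Psmb10, outside the set, and both windows of Psme2 hold no match to this core. A match is a description of the letters in the window, not a site shown to be bound. The median GC content of the members' windows was 59.0%, against 52.7% over all windows used. A gene counted as matched if any of its windows held the motif. The 37 members had 40 windows and the 27025 genes 32851, and the shares were not matched for windows per gene or for GC content.

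Reads that fit 2 genes can be lost or split, so the members were also compared by the sequence they share. No 50-base window of the principal transcript was shared with another gene in 24 of the 45 genes, under 5% of windows in 33, and 20% or more in 8. The highest shares after Psme2 and Psmb5 were those of Psmb3 (55.8%) and Psma5 (54.5%). Over the 33 genes with under 5% the median ratio was 0.933, against 0.943 over all 45. Besides Psme1, the exons of Psmb7, Psmc3, Psmd1, Psmd9 and Psmd13 overlap those of a gene on the other strand, as do those of Psma4, Psma5 and Psmd3, and their values carry the same doubt about strand. On the same strand, exons of Psmb5 overlap those of Mir686, exons of Psmd1 those of Gm21972 and exons of Psmg3 those of Gm26938.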

How the data were processed

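RNA-seq libraries of PAT, 1 pool of 3 P2Y4 KO and 1 pool of 3 WT mice, were made with a stranded mRNA kit. Per the submitters' processing notes and the study's methods, reads were trimmed with Trimmomatic, mapped to GRCm38.p4 (mm10) with STAR and counted with HTSeq on Ensembl release 87. No tool versions were named. By its values, the signal that the authors deposited is the number of reads of each gene brought to 20000000 in each library and rounded up, given for genes with at least 1 read in WT, so genes read only in P2Y4 KO PAT were not analysed here. The deposited P2Y4 KO/WT ratios and the authors' table of regulated genes hold their own comparison and were not used.

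CPM was the deposited value divided by 20, and ratios carry no pseudocount. The design had assumed counts or CPM. Reads were recovered from the steps between values (99.8% of P2Y4 KO and 99.9% of WT values fitted with no tolerance), and used only for intervals. Genes had to exceed 0.5 CPM in 1 or both libraries, and the threshold was 2-fold in either direction. With 1 library per genotype no test across samples was made. Lengths, coordinates and shared 50-base windows come from GENCODE M21, promoters from RefSeq GRCm38.p6 with chromosome 18 left out. Members named in full are the active-site genes, activators, Psmf1, all assembly chaperones, and the highest and lowest ratio of each role group. Other members, Mafk and genes that share sequence were named after their values were seen, and the 1.25-fold and 10 CPM marks were also set then. The members and gene lists were chosen with earlier results of these data known. Alternatives were other filters, scalings (TMM factors from their definition, median of ratios, ribosomal protein genes, totals without abundant or muscle genes), thresholds, an added 0.5 CPM and, chosen after seeing the data, the recovered reads. Python 3.11.15, numpy 2.4.6, scipy 1.17.1 and pandas 2.3.3 were used, and the interval code was tested on simulated data.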

Additional observations from a re-analysis of the deposited data

How the results depend on the processing

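The count of proteasome genes past the threshold stayed at 0 higher and 0 lower under every alternative filter, scaling, threshold, added 0.5 CPM and with recovered reads. When the ribosomal protein genes were scaled to a median of 1, the median log2 ratio of the members became 0.11, and the role medians became 0.13 for the alpha ring, 0.20 for the beta ring, 0.057 for the ATPases, 0.14 for the non-ATPase base, 0.0074 for the lid and 0.24 for the activators and inhibitor. Under that scaling the interval lay above 1 in 24 members and below 1 in 1, and 41 of 45 members moved beyond their counting interval, where 0 did under each of the other 4 scalings and the added 0.5 CPM. These shifts follow from the construction of the scaling. Among the related genes, 1 (Mafk) was lower at a ratio of at most 1/1.5. Over all genes, the 1617 higher genes became 1056 with the filter in both libraries, 1030 with 0.5 CPM added, 563 with the whole interval past the threshold and 3039 at 1.5-fold. The 812 lower genes became 451, 388, 193 and 1890 under the same settings, and 2352 with no filter. No paired analysis was possible because each genotype has 1 pooled library, and for the same reason no replicate could be left out.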
